A study of Rattus norvegicus with 6 samples.

Results

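The Fos and Jun family was followed in the medial prefrontal cortex (mPFC) of rats 90 min after a single dose of lysergic acid diethylamide (LSD). Its members were taken as the probe sets, the groups of short probes that read a transcript on the array, whose platform annotation names exactly 1 of the 7 genes Fos, Fosb, Fosl1, Fosl2, Jun, Junb and Jund and no other gene. This gave 13 probe sets for 6 of the 7 genes, among 8740 probe sets for 4736 genes in all, and Fosb was not analysed here. Fos and Junb were read by 3 and 2 probe sets, Jun by 4, Fosl2 by 2, and Fosl1 and Jund by 1 each.

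Fos and Jun proteins are basic leucine zipper (bZIP) transcription factors. A Fos protein pairs with a Jun protein to form activator protein 1 (AP-1), which binds short DNA sites and switches target genes on or off, whereas Jun proteins can also pair with each other. Fos, Fosb and Junb are immediate early genes: neurons transcribe them within minutes of synaptic activity, without needing new protein, and the transcripts decay quickly, so Fos is widely used as a marker of recently active cells. Jund is produced more steadily, and Fosl1 and Fosl2 encode the Fos-related antigens Fra-1 and Fra-2.

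Male Sprague-Dawley rats of 250 to 275 g received LSD tartrate at 1.0 mg/kg or saline by intraperitoneal injection, both groups at the same time, and brain tissue was taken after 90 min. The tissue was read on Affymetrix rat arrays, 3 for LSD and 3 for saline. No age was stated. The labels describe 1 pool of 4 animals per group and the study describes each array as a separate pool of a pair of rats, so the arrays of a group may be technical repeats, and p-values measure the spread among them alone. In each sample's free-text note, 1 line contradicts the title by naming the other treatment. Groups were taken from the titles, which match the treatment field, and every sign below would flip if the notes were right instead. Values are log2 RMA values, a log scale of hybridisation signal on which 1 unit is a doubling, and they can be compared between arrays for a probe set but not between probe sets.

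Promoters are shown for Junb and Jund, the Jun genes with the highest and lowest mean differences between LSD and saline, neither of which passed the test. Some of the motifs marked in them are sites through which signals from the membrane are known to reach such genes. The sequences are RefSeq promoters of assembly GRCr8, cut to the 250 bases before the annotated start, and 5 of the 7 genes had an entry, with Fos and Jun not among them. Capitals mark a cyclic AMP response element (CRE, TGACGTCA), its half-site TGACG (read as CGTCA when it lies on the other strand) or a TATA motif (TATAAA, given strand only).
Junb, chr19:40080876-40081125, plus strand: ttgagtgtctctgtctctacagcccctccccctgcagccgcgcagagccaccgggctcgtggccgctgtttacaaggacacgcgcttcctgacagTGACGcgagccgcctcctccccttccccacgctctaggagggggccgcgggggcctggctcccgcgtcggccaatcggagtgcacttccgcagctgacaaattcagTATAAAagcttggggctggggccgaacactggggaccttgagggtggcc
Jund, chr16:18769772-18770021, minus strand: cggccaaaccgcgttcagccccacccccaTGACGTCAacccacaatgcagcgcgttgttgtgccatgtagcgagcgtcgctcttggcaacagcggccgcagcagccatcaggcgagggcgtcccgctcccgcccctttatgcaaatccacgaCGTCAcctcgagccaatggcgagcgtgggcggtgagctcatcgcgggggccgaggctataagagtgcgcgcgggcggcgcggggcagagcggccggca
The Jund promoter held a full CRE, which 1.59% of 33469 promoters of this length hold, and 3 half-sites, of which 2 lie within that CRE. Junb had 1 half-site, a motif found in 18.2% of promoters, and a TATA motif, found in 8.06%. In Fosl1 there were 2 half-sites and no full CRE. No AP-1 site (TGANTCA, both strands, in 6.34% of promoters) or CArG box, the site of serum response factor (both strands, in 1.5% of promoters), was matched in the 250 bases of these 5 genes. Each match is a match of letters and nothing more.

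Over the whole array, limma called 6 of 8740 probe sets (0.0686%) at an adjusted p of 0.05, with Benjamini-Hochberg adjustment over all of them. The 1 higher after LSD makes up 0.0114% and the 5 lower make up 0.0572%, and without Saline 1 the count was 3 and without any other array 0. Saline 1 was the least typical array: 78 of its probe sets deviated by over 1 log2 unit from their average elsewhere, against 2 to 21 on the other arrays. RNA integrity was judged from the beta-actin control probe sets, whose 3′ minus 5′ difference was 0.687 ± 0.0412 in LSD arrays and 0.787 ± 0.0439 in saline arrays (SD, n = 3 each). Its groups did not overlap, with a two-sided exact permutation p of 0.1, the smallest that 6 arrays allow. The same difference for GAPDH, the other control, overlapped at 0.492 ± 0.0906 in LSD arrays and 0.523 ± 0.0433 in saline arrays (SD, n = 3 each, exact permutation p = 0.7). Of 5 measured markers of cortical excitatory neurons 4 were brighter than the median probe set, and 0 of the markers of any of 8 cell type or tissue lists passed the test.

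None of the 13 Fos and Jun probe sets passed the test between LSD and saline. In limma 0 passed adjusted over all probe sets, and 0 had an unadjusted p below 0.05, against 3.92% of all probe sets. By the estimate alone 8 probe sets were higher and 5 lower after LSD, with log2 changes between -0.20 and 0.20 and a median of 0.05, beside a median of 0.0045 over all probe sets. The median size of change, without its sign, was 0.07 log2 units for the family and 0.08 for all probe sets. The smallest unadjusted p of a member was 0.159, for a Junb probe set, and no adjusted p was below 0.981.

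The intervals show how large a change these arrays leave room for. Like the p-values, they measure the spread among arrays alone, and the arrays of a group may be technical repeats. The upper 95% limit lay below a 1.5-fold rise in 12 of 13 probe sets, and the lower limit above a 1.5-fold decrease in 12 of 13. One Jun probe set, rc_AA945867_at, reached 1.61-fold higher and 1 Fos probe set, X06769cds_at, reached 1.67-fold lower (saline over LSD). Fold changes of dim signals come out too small after RMA, and 4 member probe sets were dimmer than the median of the array while 9 were brighter. The 4 were those of Fosl1 and Jund, and 2 of Jun. These limits therefore hold on the RMA scale only, and in pooled tissue a response in few cells cannot be told apart from a small response in many.

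**Figure D1:**
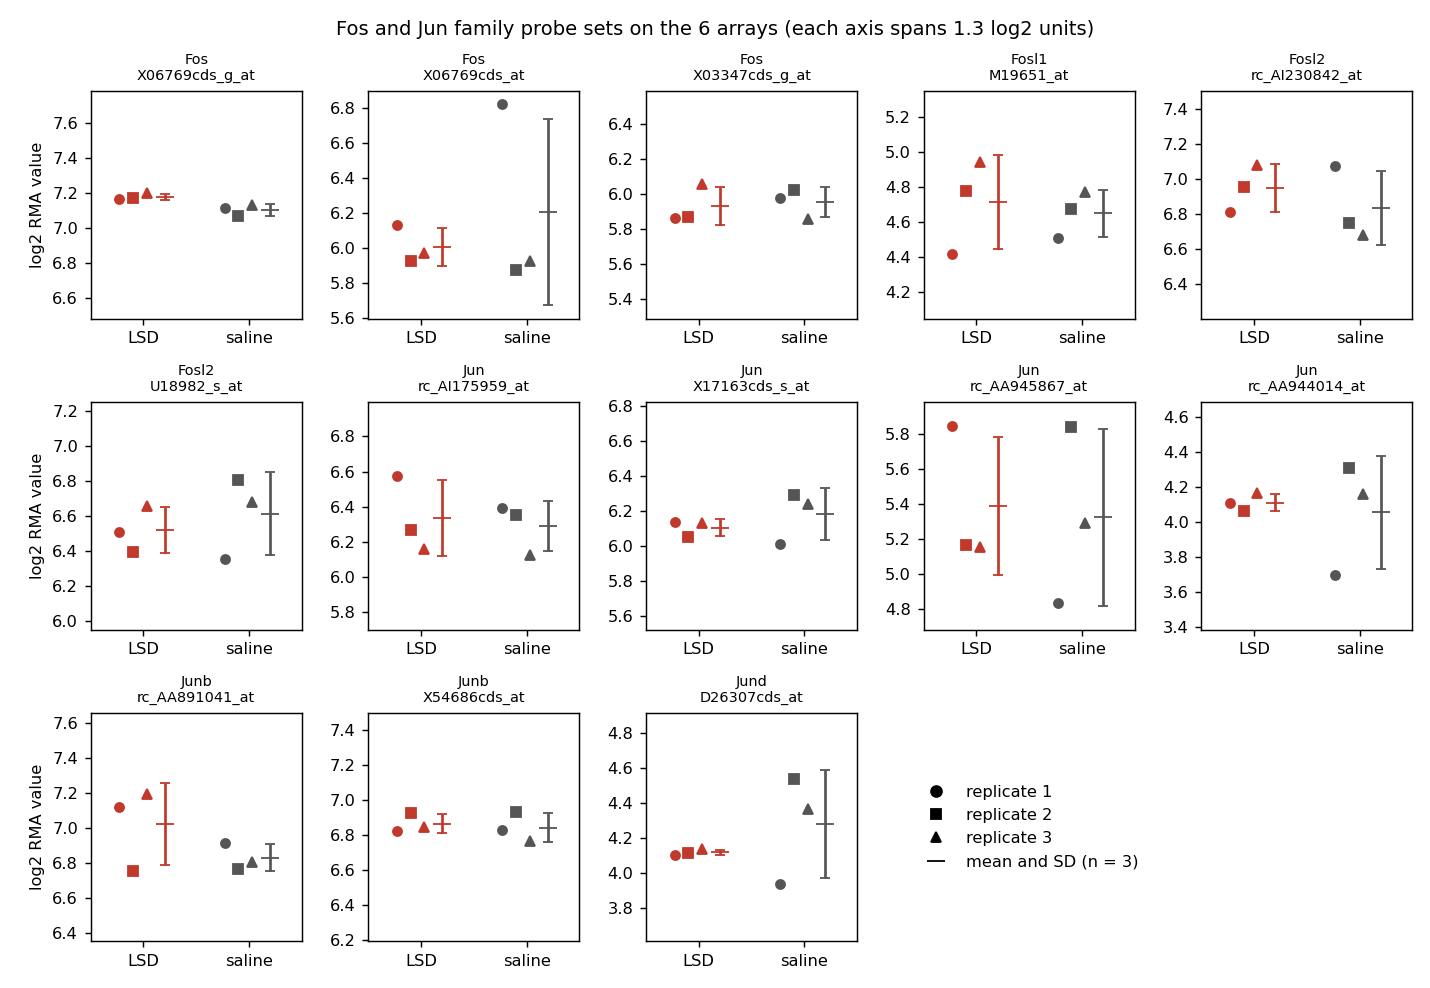
Log2 RMA values (vertical axis, each spanning 1.3 log2 units) of the 13 probe sets of the family on the 3 LSD arrays (red, left) and 3 saline arrays (grey, right), with the mean and SD beside the points (n = 3). Only in the first Fos panel do all LSD points lie above all saline points, and Saline 1 stands at 6.82 in the second.

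Fos, the gene most often read as a sign of neuronal activity, had its brightest probe set, X06769cds_g_at, at 7.17, 7.17 and 7.20 log2 units on the LSD arrays and 7.11, 7.07 and 7.13 on the saline arrays. All 3 LSD values lay above all saline values, in a very narrow band, and the SE below draws on the spread of all probe sets and is wider than this one's own. The means were 7.18 ± 0.0182 for LSD and 7.10 ± 0.033 for saline (SD, n = 3 each), a log2 change of 0.07 ± 0.0765 (SE) or 1.05-fold, with a 95% interval from 0.932-fold to 1.19-fold. Its limma adjusted p was 0.981. This was the 1 member probe set of 13 (7.69%) whose groups did not overlap, where 10.4% of all probe sets did not overlap, 6.58% with LSD higher and 3.79% with LSD lower, so that the share among members was not above the background.

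The summed level of the measured cortical excitatory neuron markers also lay higher on every LSD array, at 3938 to 4087 linear signal units for LSD and 3736 to 3811 for saline, with 3 of 5 markers higher. Summed astrocyte markers lay lower (5971 to 6317 for LSD, 6321 to 6441 for saline, 4 of 7 markers higher by their own change) and summed choroid plexus and meninges markers lower (1646 to 1737 for LSD, 2067 to 2217 for saline, 6 of 9 lower). Summed microglia markers were higher (627 to 672 for LSD, 597 to 606 for saline, 5 of 7 higher), while those of inhibitory neurons, oligodendrocytes, endothelial cells and striatum overlapped between the groups. Of single probe sets 10.4% did not overlap between the groups, and no such share was worked out for sums. The astrocyte ranges lay only just apart, at 6317 and 6321. Sums of linear signal weigh the brightest probe sets most, although signals cannot be compared between probe sets. The median marker changed by only 0.0151 log2 units for excitatory neurons, and by 0.0265 for astrocytes although the astrocyte sum was lower. It changed by 0.0918 for microglia and -0.0794 for choroid plexus and meninges. How much each marker added to a sum was not tested, nor was the part of these lists in the Fos values.

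The other Fos probe sets did not separate the groups. X06769cds_at, which comes from the same source sequence as the brightest one, was at 6.13, 5.92 and 5.97 in LSD arrays and at 6.82, 5.88 and 5.92 in saline arrays. A single array, Saline 1, lay above the other 5, which spanned only 5.88 to 6.13. With it the log2 change was -0.20 ± 0.234 (SE), and without Saline 1 it was 0.11 ± 0.0937, so that 1 array set its sign. X03347cds_g_at, whose probe set name gives another source sequence, was at 5.87, 5.87 and 6.06 with LSD and 5.98, 6.02 and 5.86 with saline, a log2 change of -0.02 ± 0.0941. Here the arrays of both groups were fully mixed. The platform annotation cites for it a sequence other than the one in its name, so its assignment to rat Fos is uncertain.

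**Figure D2:**
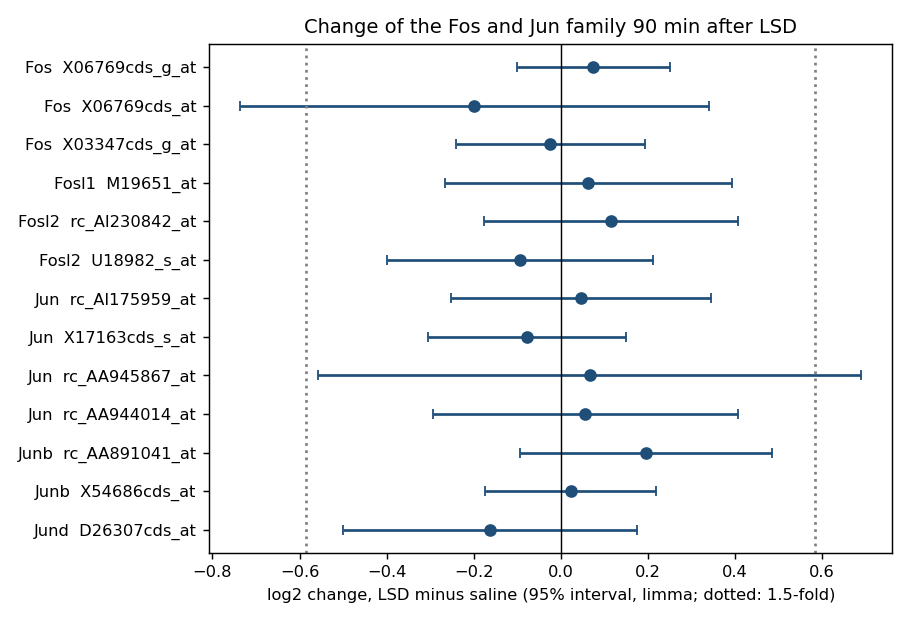
Log2 change from LSD minus saline (horizontal axis) of each of the 13 probe sets, with points for the limma estimate and bars for its 95% interval (n = 3 arrays per group). Every interval includes 0, and the dotted 1.5-fold lines are crossed upward by 1 Jun probe set and downward by 1 Fos probe set.

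Fosl2 (Fra-2) was read by a pair of probe sets that leaned opposite ways. The brighter, rc_AI230842_at, was at 6.81, 6.96 and 7.08 log2 units in LSD arrays and at 7.07, 6.75 and 6.68 in saline arrays, a change of 0.12 ± 0.127 (SE, limma adjusted p = 0.981). The other, U18982_s_at, was at 6.51, 6.40 and 6.66 with LSD and at 6.35, 6.81 and 6.68 with saline, a change of -0.09 ± 0.133. In both, Saline 1 lay at the other end from Saline 2 and Saline 3, near or past the most extreme LSD value. The ending _s_at marks a probe set that may hybridise with more than 1 transcript, which leaves its assignment to Fosl2 uncertain. Without Saline 1 the changes were 0.24 ± 0.103 and -0.22 ± 0.104, still of opposite sign (limma adjusted p = 0.554 and 0.567).

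Fosl1 (Fra-1), a Fos relative that lacks the strong activation domain of Fos, had values of 4.42, 4.78 and 4.94 in LSD arrays and 4.51, 4.67 and 4.77 in saline arrays. The LSD values enclosed those of saline. Its change was 0.06 ± 0.143 log2 units (SE), and leaving out 1 array moved it between -0.05 (without LSD 3) and 0.21 (without LSD 1).

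Among the Jun proteins, which supply the partner of Fos in AP-1, Junb had the highest estimate of the family. Junb can replace Jun in the pair and often restrains it. Its probe set rc_AA891041_at was at 7.12, 6.75 and 7.19 log2 units in LSD arrays and at 6.91, 6.77 and 6.80 in saline arrays. LSD 1 and LSD 3 lay above all saline arrays, and LSD 2 lay below them all. The log2 change was 0.20 ± 0.125 (SE), or 1.15-fold with an interval from 0.937-fold to 1.40-fold (limma adjusted p = 0.981). Without LSD 2 it was 0.33, with an unadjusted limma p of 0.0169 and an adjusted p of 0.999. The second Junb probe set, X54686cds_at, did not show this split: it was at 6.82, 6.93 and 6.85 with LSD and 6.83, 6.93 and 6.77 with saline, a change of 0.02 ± 0.0851.

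Jun, the founding member of its branch and a target of the Jun N-terminal kinases, was read by 4 probe sets with changes of 0.05, -0.08, 0.07 and 0.06 log2 units. The brightest, rc_AI175959_at, was at 6.58, 6.27 and 6.16 in LSD arrays and 6.39, 6.35 and 6.12 in saline arrays (0.05 ± 0.13, SE). X17163cds_s_at was at 6.14, 6.05 and 6.13 with LSD and 6.01, 6.29 and 6.24 with saline (-0.08 ± 0.0984). The groups overlapped in both, and the _s_at type of X17163cds_s_at leaves its assignment to Jun uncertain.

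The widest spread of any member was in the third, rc_AA945867_at, with 5.84, 5.17 and 5.16 in LSD arrays and 4.84, 5.84 and 5.29 in saline arrays. One array of each group stood near 5.84, and the pooled SD was 0.452 log2 units, beside a median of 0.184 over the members and 0.13 over all probe sets. The dimmest Jun probe set, rc_AA944014_at, was at 4.11, 4.06 and 4.16 with LSD and 3.70, 4.31 and 4.16 with saline. Again Saline 1 was the lowest of the 6 arrays. Without it the changes of these probe sets turned to -0.18 ± 0.247 and -0.12 ± 0.0879, nominally lower after LSD where they had been nominally higher, and neither passed (limma adjusted p = 0.856 and 0.706).

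Jund, the steadily expressed Jun gene, was at 4.11, 4.12 and 4.14 log2 units in LSD arrays and at 3.94, 4.54 and 4.37 in saline arrays. The LSD values were nearly identical and lay between Saline 1 and the other saline arrays. Its means were 4.12 ± 0.0155 in LSD arrays and 4.28 ± 0.309 in saline arrays (SD, n = 3 each), a change of -0.16 ± 0.147 (SE, limma adjusted p = 0.981). Without Saline 1 the change was -0.33 ± 0.087 with an unadjusted limma p of 0.00645, the 1 member of 13 (7.69%) below 0.05 there, where 9.22% of all probe sets were. It did not pass over all probe sets (limma adjusted p = 0.5).

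**Figure D3:**
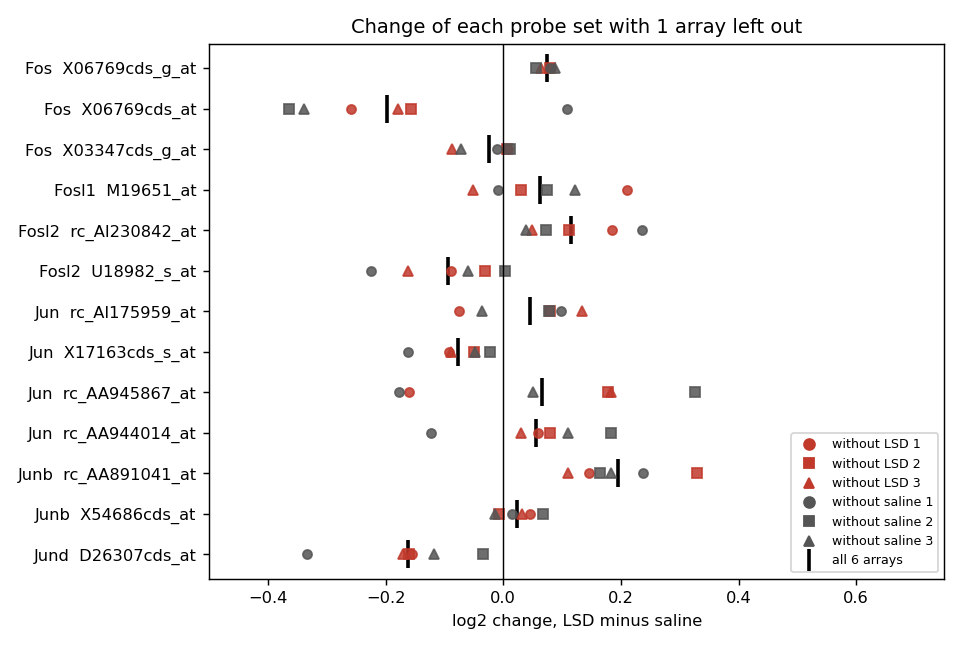
Log2 change from LSD minus saline (horizontal axis) of each of the 13 probe sets with all 6 arrays (black bar) and with each array left out (symbols; red for LSD arrays and grey for saline arrays). Leaving out Saline 1 gives the lowest estimate for Jund (-0.33) and the highest for the second Fos probe set (0.11).

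Saline 1 and Saline 2 most often held the extreme values of the family. Saline 1 gave the lowest value of the 6 arrays in 5 of the 13 probe sets and the highest in 1, whereas Saline 2 gave the highest in 5 and the lowest in 2. Without Saline 1 the groups did not overlap in 5 member probe sets (38.5%): those of Fos (X06769cds_g_at) and Fosl2 (rc_AI230842_at) with LSD higher, and those of Fosl2 (U18982_s_at), Jun (X17163cds_s_at) and Jund with LSD lower. With 3 arrays against 2, 28.5% of all probe sets separated in the same way, and 0 members passed over all probe sets. The mean deviation of the 13 probe sets from their own 6-array means was 0.03, -0.06 and 0.04 log2 units on LSD 1, 2 and 3 and -0.06, 0.08 and -0.03 on Saline 1, 2 and 3, so that the groups overlapped.

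Probe sets of the same gene were compared directly for Fos, Fosl2, Jun and Junb, by the per-array difference between the brightest and each other probe set. In 0 of 7 pairs did the difference separate LSD from saline. The largest shifts were 0.27 log2 units between both X06769 probe sets of Fos, 0.21 for Fosl2 and 0.17 for Junb (two-sided exact permutation p = 0.5, 0.4 and 0.4, adjusted over the 7 pairs to 0.84, with 0.1 the smallest p possible). Across the 6 arrays the 11 pairs of probe sets within a gene had a median Pearson r of -0.14 and ranged from -0.58 to 0.83. The 3281 such pairs of all 1565 genes with several probe sets had a median of 0.29. Among the 67 pairs of different family members r ranged from -0.94 to 0.96 with a median of 0.07. These values describe 6 arrays that share the quantile normalization, and pairs share probe sets.

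The genes whose probe sets followed the brightest Fos probe set most closely over the 6 arrays were Sirt2 (r = 0.99), which encodes a deacetylase, Zfp148 (0.99), a zinc finger transcription factor, and Gstt2 (0.98), a glutathione transferase. Those closest to the brightest Jun probe set were Stc1 (0.98), encoding the hormone stanniocalcin, Otc (0.98), an enzyme of the urea cycle, and Gng5 (0.97), a G protein subunit. They were picked as the closest among all probe sets with 1 symbol outside the family, and none is on the list of immediate early genes examined here. Such a pick over 6 arrays gives high r even for unrelated genes, and no r was tested.

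The signalling genes known to act on Fos and Jun did not pass either. Among 19 measured kinases and factors upstream, 12 had lower and 7 had higher estimates after LSD, and their median was -0.08 log2 units beside 0.0056 over all 4736 genes. In limma 0 passed and 0 had an unadjusted p below 0.05 on any probe set, where 0.0633% and 4.77% of all genes did. The lowest p belonged to Mapk14, the stress kinase p38 alpha (-0.29 ± 0.142 log2 units, SE), Araf, a Raf kinase of the ERK cascade (0.17 ± 0.0888), Mapk8ip1, a scaffold for the Jun N-terminal kinases (-0.18 ± 0.102), and Map2k2, the ERK kinase MEK2 (-0.20 ± 0.13), each by its probe set of lowest p. The other probe sets of Mapk14 were between -0.12 and -0.0829 and those of Map2k2 between -0.10 (the brightest) and 0.0479. The Map2k2 probe set of lowest p is of the _s_at type, which leaves its assignment uncertain. Mapk8ip1 was at 6.46, 6.76 and 6.73 in LSD arrays and 6.84, 6.78 and 6.86 in saline arrays. Its groups did not overlap, with LSD lower, as in 3.79% of all probe sets. The groups overlapped in the other 3 genes.

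Other bZIP factors, many of which can pair with Fos or Jun, were spread evenly around 0. Of 14 measured 7 were higher and 7 lower, with a median of 0.0078 and single values between -0.13 and 0.21, and 0 passed or had an unadjusted p below 0.05. Those of lowest p, by their probe set of lowest p, were the CCAAT-binding factors Cebpa (0.17 ± 0.106, SE) and Cebpd (0.17 ± 0.119), the cyclic AMP-responsive factor Crem (-0.13 ± 0.104), and Maf (0.21 ± 0.215). Further probe sets lay at 0.15 for Cebpa, between -0.0181 and 0.0492 (the brightest) for Cebpd, between -0.0651 and 0.0161 for Crem, and between -0.0308 and -0.0156 for Maf. The probe sets of lowest p of Cebpd and Maf are of the _s_at type, which leaves their assignment uncertain.

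Genes that AP-1 or deltaFosB, a stable truncated form of Fosb, are known to regulate were measured at 30 of 33 on the list. Of these 14 were higher and 16 lower by their brightest probe set, with a median of -0.02. No target passed in limma. An unadjusted p below 0.05 on any probe set was found for 2 of the 30, both lower after LSD, where 4.77% of all genes had one. Penk, which encodes proenkephalin, was at 6.09, 6.03 and 5.97 log2 units in LSD arrays and at 6.35, 6.55 and 6.59 in saline arrays, a change of -0.46 ± 0.0942 (SE, limma adjusted p = 0.341). A probe set of Camk2a, the calcium/calmodulin-dependent kinase of excitatory synapses, was at 4.74, 5.14 and 5.22 with LSD and at 5.61, 5.34 and 5.50 with saline (-0.45 ± 0.141, limma adjusted p = 0.981). In these probe sets every LSD array lay below every saline array, as in 3.79% of all probe sets. The brighter Camk2a probe set differed by -0.19, and those of Penk and Camk2a with the lowest p are of the _s_at type. Camk2a is also on the list of excitatory neuron markers, whose sum was higher after LSD although Camk2a itself was lower. Penk is also a striatal marker, and 9 of 11 striatal markers were lower after LSD; the share of that tissue in the pools was not tested. Mmp13, a collagenase (0.22 ± 0.117), and the regeneration-linked gene Sprr1a (0.20 ± 0.1) were the next by p, but the brighter of the Sprr1a probe sets had the opposite sign (-0.0878).

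Immediate early genes outside the family divided evenly, with 13 of 26 higher, 13 lower and a median of -0.0013. None passed in limma. An unadjusted p below 0.05 on any probe set was found for 5 of the 26 genes, 2 higher and 3 lower, where 4.77% of all genes had one, and this list had 61 probe sets. Arc, a postsynaptic protein gene of active synapses, was at 7.82, 7.76 and 7.74 in LSD arrays and 7.54, 7.45 and 7.62 in saline arrays (0.24 ± 0.0848, SE). Its groups did not overlap, with LSD higher, as in 6.58% of all probe sets. A Gadd45a probe set differed by 0.77 ± 0.272, with other probe sets of that DNA damage-inducible gene between -0.30 and 0.74. Its brightest probe set had the opposite sign (-0.26), so that the gene stands among the lower ones in the even split. Probe sets of the neurotrophin Bdnf (-0.31 ± 0.11) and of Homer1 (-0.21 ± 0.0891), a synaptic scaffold, had further probe sets on both sides of 0. In these Bdnf and Homer1 probe sets every LSD array lay below every saline array, as in 3.79% of all probe sets. The fifth, Egr2, a zinc finger factor named here after its value was seen, differed by -0.29 ± 0.126. All 5 had a limma adjusted p of 0.981. The brightest probe sets of the family genes, 5 higher and 1 lower, are shown beside these lists, and no difference between the family and a list was tested.

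**Figure D4:**
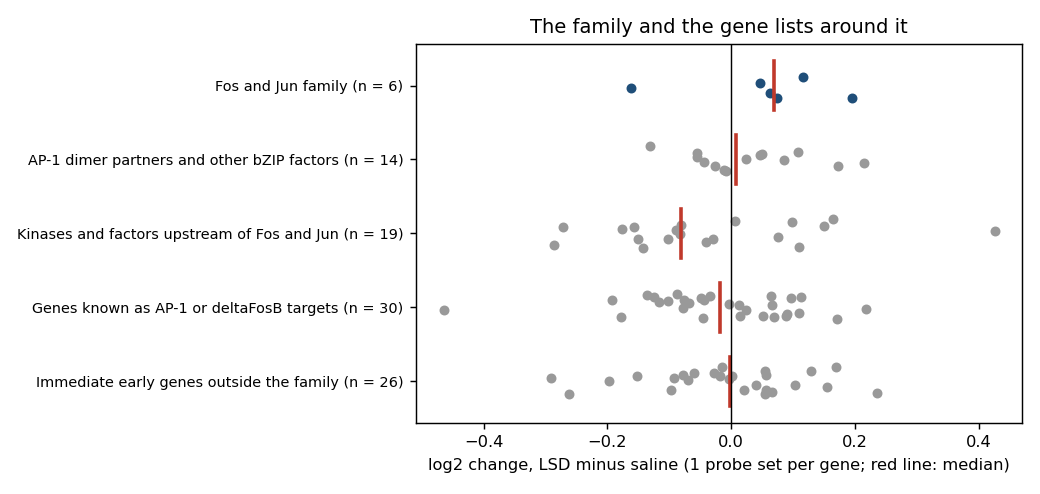
Log2 change from LSD minus saline (horizontal axis) of the 6 family genes (blue) and of the genes on 4 related lists (grey), each by its brightest probe set, with red lines at the medians. The family genes lie between -0.16 and 0.20, within the range of each of the 4 lists except the bZIP factors, whose lowest gene is at -0.13.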

How the data were processed

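RNA from rat mPFC was labelled with biotin and hybridised to Affymetrix rat genome arrays of the U34 set. Values were deposited on the log2 scale, computed by the authors through rma in the affy package (version not given in the sources used here), that is background correction, quantile normalization across arrays and summary per probe set. A change common to most transcripts is removed by that normalization. Arrays have no read depth, detection calls were not used, and 3 arrays per group limit the precision.

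The 59 control probe sets were left out, leaving 8740. Platform annotation gave 7006 of them 1 symbol, 308 several and 1426 none. By gene ID, 6985 matched RefSeq (GRCr8), with 0 symbols changed. The contrast of LSD with saline was fitted in limma 3.58.1, under R 4.3.3 (two-sided, no covariate, Benjamini-Hochberg over all probe sets, threshold 0.05). Errors of changes and 95% intervals come from that fit. Its calls, signs and estimates were tested on simulated data in which all arrays were equally noisy. The errors and intervals were not checked there. In counts, medians and the plot of lists a gene stands by its probe set of highest mean. Named genes were every member, the 4 genes of lowest p per list, with values from their probe set of lowest p, and the 3 closest in pattern to Fos and to Jun. Members and lists were chosen with earlier results of these data known. Alternatives were other scalings, array weights, a median filter on level, a block on replicate number, a robust prior with a trend on intensity, gene-level values, an exact Wilcoxon rank sum test and leaving out each array.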

Additional observations from a re-analysis of the deposited data

How the results depend on the processing

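No probe set of the family passed the threshold under any alternative run: array weights, other scalings, a filter on dim probe sets, the replicate block, a robust prior with a trend, gene-level values, the exact Wilcoxon rank sum test, or without any 1 array. The filter gave values for the 9 brighter member probe sets, and gene-level values exist for 1 estimate per gene. The count over all probe sets was 6. It became 16 of 4370 above the median level, 20 with the trend and robust prior, 42 with array weights, 1 with 1 probe set per gene, and 0 with the Wilcoxon test, whose smallest p is 0.1. With 1 array left out it ranged from 0 (without any array but Saline 1) to 3 (without Saline 1). Listed genes past the threshold numbered 0 throughout, except 1, Penk, with array weights (limma adjusted p = 0.0127).

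The replicate block gave 0 calls in limma over all probe sets, with 262 at an unadjusted p below 0.05. The labels link same-numbered arrays by number alone. Their deviations correlated at -0.02, -0.23 and 0.17, and 1 of 3 LSD arrays correlated best with its own number. With 3 arrays per group these values cannot show whether same-numbered arrays shared a batch.

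Array weights, which counted Saline 1 least (0.289) and LSD 2 most (3.09), gave 4 of 13 members an unadjusted limma p below 0.05, where 17% of all probe sets had one; the 4 were both Fosl2 probe sets, Jun X17163cds_s_at and Jund. These weights turned Jun rc_AA945867_at to -0.19 and rc_AA944014_at to -0.0816. Averaging the 3 Fos probe sets gave -0.0492, opposite to the brightest. The cause was not tested.

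Leaving out 1 array turned the sign of 8 members at least once. The ranges were -0.36 to 0.11 for Fos X06769cds_at, -0.0873 to 0.0114 for Fos X03347cds_g_at, -0.0516 to 0.21 for Fosl1, -0.22 to 0.0033 for Fosl2 U18982_s_at and -0.0138 to 0.0677 for Junb X54686cds_at. For Jun they were -0.0748 to 0.13 (rc_AI175959_at), -0.18 to 0.33 (rc_AA945867_at) and -0.12 to 0.18 (rc_AA944014_at). Differences between probe sets of a gene ranged from -0.0287 to 0.43 (the X06769 pair of Fos), -0.25 to 0.27 (Jun rc_AA945867_at) and -0.15 to 0.22 (Jun rc_AA944014_at). The other 5 members kept their sign.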
